A study of Rattus norvegicus with 12 samples.

Results

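The genes described here are the 10 transcription factor genes Fos, Fosb, Fosl1, Fosl2, Jun, Junb, Jund, Egr1, Egr2 and Egr3. They were chosen by symbol from a table of 33801 genes and each symbol stands on 1 row. RNA was measured in 12 libraries from the tissue around mini-implants at the site of the maxillary first molar of wild-type (WT) rats, collected to a diameter of 4 mm. The implants were of titanium (cpTi) or of the zirconium alloy Zr58Cu25Al14Nb3, called Nb3 here. Cyclic loading lasted 2 weeks in the loaded groups and the other implants stayed static. Material and loading together gave 4 groups of 3 libraries: loaded Nb3, loaded cpTi, non-loaded Nb3 and non-loaded cpTi. No group lacked an implant, so every value is from bone that carried one. Whether replicates came from separate animals is not labelled, so p-values speak only of the spread among the 12 libraries. The series asks which genes change in the bone around an implant when it is loaded. A set of genes that responds quickly to outside signals is one place to look. All loaded libraries are from 2 weeks of loading, so a response at an earlier time was not measured.

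Fos and Jun proteins pair through leucine zippers to form the factor AP-1, in which a Fos protein needs a Jun partner while Jun proteins can also pair with each other. Egr proteins bind GC-rich DNA through zinc fingers. Most of these genes are immediate early genes: their transcription starts within minutes of a stimulus such as serum or mechanical strain, through factors already bound at the promoter, and their mRNA is short-lived. In bone, AP-1 takes part in the formation of both osteoblasts and osteoclasts, and Egr2 is also the factor that drives myelination in Schwann cells.

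The promoters of Egr2 and Jund are shown because Egr2 is 1 of the 2 genes that changed and Jund had the highest level of the 9 tested genes, and because the pair hold different known binding motifs. Sequences are from RefSeq (build GRCr8) and cover the 250 bases before the annotated start, Egr2 at chr20:21054442-21054691 and Jund at chr16:18769772-18770021, both on the minus strand and written 5′ to 3′ along the gene. Capitals mark a CArG box (the motif bound by serum response factor) in Egr2, and in Jund the cyclic AMP response element followed by an Egr motif.
Egr2: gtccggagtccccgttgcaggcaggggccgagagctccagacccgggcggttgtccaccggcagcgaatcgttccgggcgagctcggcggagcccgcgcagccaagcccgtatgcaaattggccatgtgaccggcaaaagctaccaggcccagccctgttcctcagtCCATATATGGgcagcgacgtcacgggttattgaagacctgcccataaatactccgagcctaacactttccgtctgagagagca
Jund: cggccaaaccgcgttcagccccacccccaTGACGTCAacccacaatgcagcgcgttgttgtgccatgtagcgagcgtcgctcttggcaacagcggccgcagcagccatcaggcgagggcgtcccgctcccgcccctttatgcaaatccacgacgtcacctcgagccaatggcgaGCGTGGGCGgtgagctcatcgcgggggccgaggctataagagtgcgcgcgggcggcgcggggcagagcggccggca
The CArG box of Egr2 lies 83 to 74 bases before the start, and 1.497% of the 33469 RefSeq promoters of this length hold one on either strand. The cyclic AMP response element of Jund, TGACGTCA, lies 221 to 214 bases before its start and occurs in 1.59% of promoters. Its Egr motif, GCGTGGGCG, lies 76 to 68 bases before the start and occurs in 0.478%. The shorter form TGACG, which the full element also contains, was found outside it in both promoters, in Egr2 at 66 to 62 and in Jund at 98 to 94 bases before the start, and occurs in 18.2% of all promoters. RefSeq promoters were matched for 7 of the 10 genes and not for Fos, Jun and Egr3. Among the other matched genes Egr1 held 2 CArG boxes and 2 copies of TGACG, Fosl1 2 copies of TGACG, Junb 1 copy, and Fosl2 the Egr motif GCGGGGGCG, which 2.45% of promoters hold. The AP-1 motif TGACTCA was in 4.05% of promoters and in none of the 7, and Fosb held none of the motifs searched. A match describes the letters of the window and does not show that a factor binds there.

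The deposited values are FPKM, read counts per gene scaled for transcript length and library. Only genes with at least 1 FPKM in 3 or more libraries entered the tests, 9 of the 10 genes and 15268 of all genes. Differences are given on the log2(FPKM + 1) scale, which understates the change of low genes, and a gene was called where limma's p, adjusted by Benjamini-Hochberg over all tested genes, was under 0.05. Reads on genes ranged from 12.9 to 22.3 M per library. Correlations over all tested genes were 0.731 to 0.866 between a loaded Nb3 library and any of the other 9 and 0.932 to 0.969 among those 9, so the loaded Nb3 libraries stand apart. In these 3, mitochondrial genes took 11.97%, 24.3% and 11.3% of reads, against 4.31% to 6.86% in the others.

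Jund stood far above Jun in every library. It encodes the family member that is made constantly in many cells, and stood between 81.6 and 164 FPKM in the 12 libraries. That was 79.4% to 92.8% of the summed FPKM of Jun and Jund in each library, with a mean of 88.8%, and Jun, the classic partner of Fos, made up the rest. Junb, the remaining family member, is left out of these shares because its level is not known from this table. Fos and Fosl2 (also called Fra-2) shared the Fos family, at 46.7% ± 14.8 and 48.0% ± 13.7 of its summed FPKM (SD, n = 12), and their order differed between groups. In non-loaded cpTi the share of Fos, 54.3% to 58.1%, lay above that of Fosl2, 33.9% to 42.6%. In loaded cpTi it lay below, at 29.0% to 42.9% against 51.8% to 62.9%. Beside Nb3 the shares of both genes overlapped in each group. Fosl1 (Fra-1), at 0.768 to 2.22 FPKM, and Fosb, at 0.191 to 2.28 FPKM, added little as listed. The Fosl1 row overlaps a row of the opposite strand, as given below for Junb. Egr1 led the Egr family with 64.2% ± 9.91 of its summed FPKM, followed by Egr3 with 24.95% ± 7.08 and Egr2 with 10.8% ± 6.10. By mean FPKM over the 12 libraries, a level per length, the order was Jund (107), Egr1 (25.2), Fos (20.2), Fosl2 (18.6), Jun (13.9), Egr3 (9.92), Egr2 (4.31), Fosl1 (1.27) and Fosb (0.746). The lowest library of Jund, at 81.6 FPKM, lay above the highest of any other of these genes, 39.6 FPKM in Fos. Below Jund, the ranges of each pair of neighbours overlapped, and the order was not the same in every group. In loaded Nb3 the means of Jun (24.6 FPKM), Egr1 (24.7 FPKM) and Fosl2 (24.1 FPKM) lay close together and above that of Fos (19.2 FPKM). In non-loaded Nb3 Fos (26.6 FPKM) and Egr1 (26.1 FPKM) were level.

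**Figure D1:**
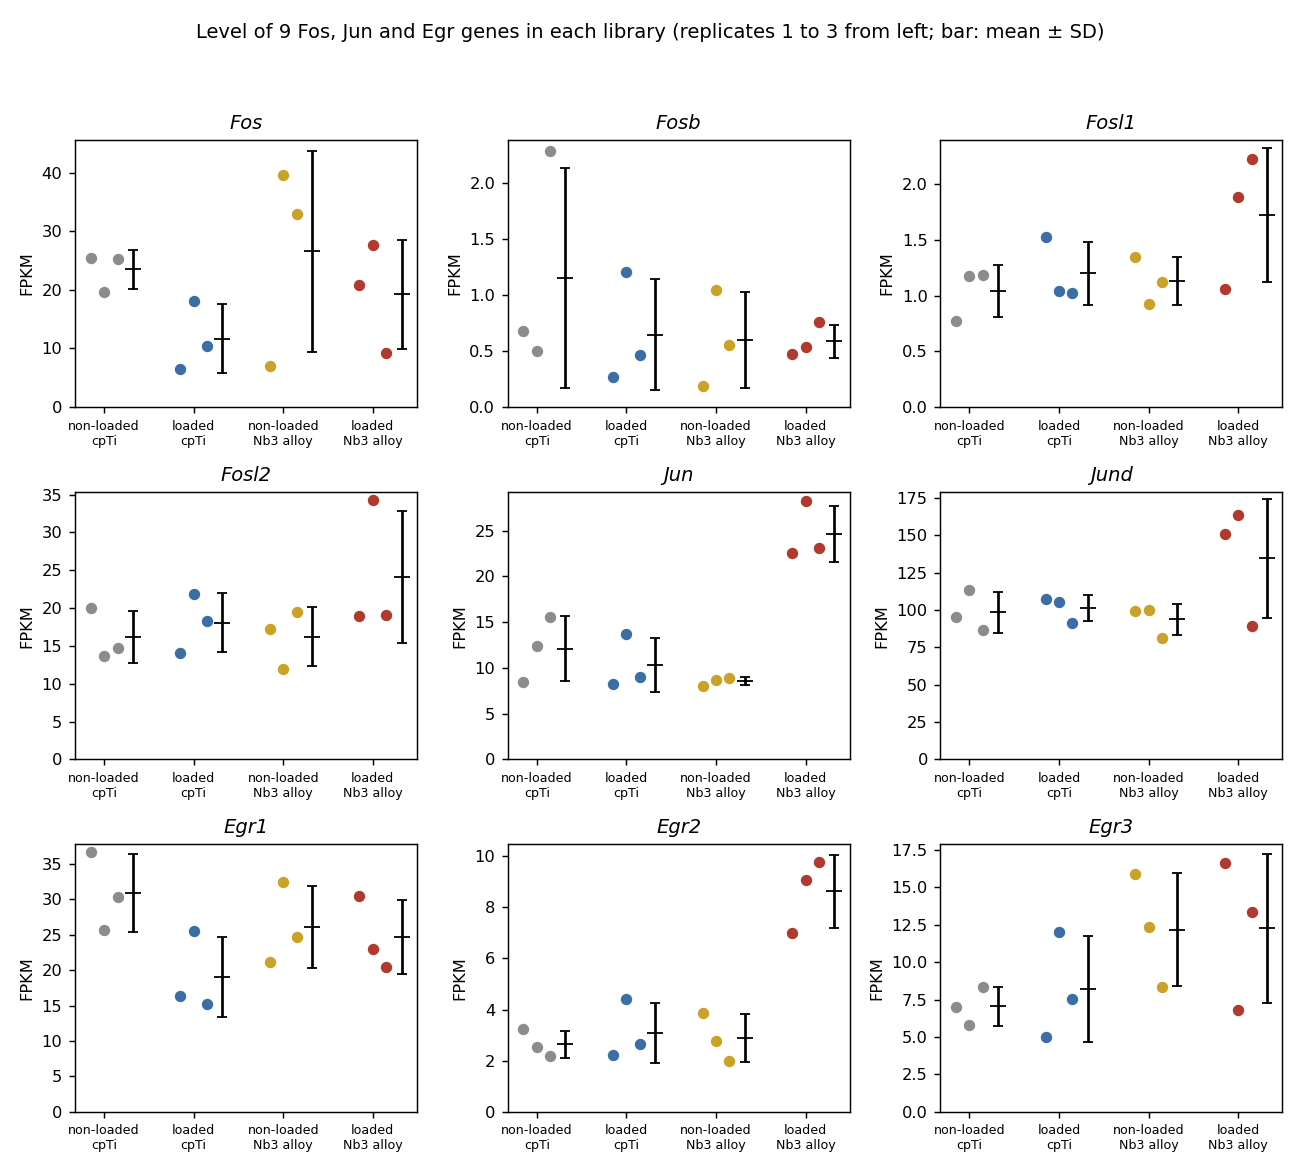
FPKM (vertical axis, linear, from 0) of the 9 tested genes in every library, 1 panel per gene, with the 4 groups along the horizontal axis; points are libraries (replicates 1 to 3 from left to right) and bars show the mean ± SD of 3 libraries. The 3 loaded Nb3 libraries lie above all other libraries for Jun and for Egr2, while for Fos and Egr3 the libraries of a group are widely spread.

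Junb, a Jun protein known to be weak in activation on its own, was listed at 0 in all 12 libraries and was not tested. The table gives it (ENSRNOG00000067725, chromosome 19, 23176294 to 23178035, plus strand) the biotype pseudogene. It lies wholly inside a row for a long noncoding RNA on the opposite strand, ENSRNOG00000065682 (23175205 to 23178490), which held 2 to 22 reads per library (0.0435 to 0.406 FPKM). Over the whole table, 238 of 879 protein-coding rows that lie wholly inside a row of the opposite strand were listed at 0 in every library (27.1%), against 3620 of 22217 of the other protein-coding rows (16.3%). Among pseudogene rows the shares were 69 of 132 (52.3%) and 342 of 594 (57.6%). The sources used here do not give the strand setting of the counting. Reads of these overlapping rows therefore cannot be told apart and the level of Junb is not known. The Fosl1 row overlaps in part a protein-coding row of the opposite strand, Ccdc85b (chromosome 1, 202763631 to 202764703). Ccdc85b was listed at 0 reads in every library. Whether reads of that stretch are missing from Fosl1 is not known, so its level and differences carry the same doubt. Mapk3, a kinase that many cells use, was also listed at 0 in all 12 libraries.

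Loading beside the Nb3 alloy came with more mRNA of Jun and Egr2, and of no other of the 9 tested genes by limma. Jun (ENSRNOG00000026293, chromosome 5, 109893145 to 109897656) stood at 22.6, 28.2 and 23.1 FPKM in loaded Nb3 replicates 1, 2 and 3. It stood at 8.04, 8.66 and 8.92 FPKM in non-loaded Nb3. All 3 loaded libraries were above all 3 static ones, and above every cpTi library too. The means were 24.6 ± 3.10 and 8.54 ± 0.449 FPKM (SD, n = 3 each), a log2 difference of 1.42 (SE 0.22, 95% interval 0.94 to 1.90, adjusted p = 0.000368 by limma), or 2.68-fold on that scale.

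Egr2, the zinc finger factor also known as Krox20 (ENSRNOG00000000640, chromosome 20, 21051277 to 21055562), stood at 7.01, 9.09 and 9.78 FPKM in loaded Nb3. In non-loaded Nb3 it stood at 3.88, 2.75 and 2.00 FPKM, so the groups did not overlap here either. The means were 8.63 ± 1.44 and 2.88 ± 0.947 FPKM, a log2 difference of 1.33 (SE 0.24, 95% interval 0.81 to 1.85, adjusted p = 0.000988 by limma), or 2.51-fold on that scale. The call of 2 of 9 genes (22.2%) is to be read against a background in which 45.8% of all tested genes were called in this comparison and 20.7% were called higher. These were 3156 higher and 3840 lower genes, which became 2266 and 4670 when FPKM was rescaled to equal total reads. The median difference of the 9 genes was 0.33, and that of all tested genes was -0.02.

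The share of Jun in the summed FPKM of Jun and Jund, and that of Egr2 in the Egr family, were also higher in loaded than in non-loaded Nb3, given here as a description with no test. Jun made up 16.1% ± 3.97 in loaded Nb3 and 8.43% ± 1.25 in non-loaded Nb3 (SD, n = 3 each). Egr2 made up 19.6% ± 5.75 of the Egr family in loaded Nb3 and 7.001% ± 2.16 in non-loaded Nb3. For both genes the lowest share in loaded Nb3, 13.0%, lay above the highest in non-loaded Nb3, 9.86% for Jun and 9.49% for Egr2. The share of Jun in non-loaded cpTi, 8.11% to 15.2%, overlapped that in loaded Nb3, whereas the share of Egr2 there, 5.32% to 7.49%, did not.

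Jund was the nearest of the remaining genes to a call. It stood at 151, 164 and 89.0 FPKM in loaded Nb3 and at 99.4, 100.2 and 81.6 FPKM in non-loaded Nb3. Replicates 1 and 2 of the loaded group were the highest of all 12 libraries, and replicate 3 lay among the static values. The log2 difference was 0.47 (SE 0.22, adjusted p = 0.0971 by limma), and without loaded Nb3 replicate 3 it was 0.75 and called (adjusted p = 0.00507, against a range of 0.00507 to 0.283 over the 15 alternatives tried).

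The Fos genes, whose proteins supply the other arm of AP-1, gave no call beside the Nb3 alloy. Fos (ENSRNOG00000008015, chromosome 6, 105121170 to 105124036) stood at 20.8, 27.6 and 9.30 FPKM under loading beside Nb3, and at 7.10, 39.6 and 32.9 FPKM beside static Nb3. The highest and the lowest of these 6 values were both in the static group. Its log2 difference was -0.27 with a 95% interval of -1.54 to 1.01 (adjusted p = 0.736 by limma), so a change of more than 2-fold in either direction lies within the interval. Fosl2 stood at 19.0, 34.2 and 19.1 FPKM against 17.2, 11.9 and 19.5 FPKM, with groups that overlapped (0.52, adjusted p = 0.128). Fosl1 had 1.06, 1.88 and 2.22 FPKM against 1.35, 0.922 and 1.12 FPKM (0.33, adjusted p = 0.212), from 43 to 137 reads per library. Fosb differed by 0.02 (adjusted p = 0.964), from 11 to 126 reads per library, and reached 1 FPKM in 3 libraries, the least that the filter allowed.

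The other Egr genes did not follow Egr2. Egr1, which many studies use as a marker of a recent stimulus (ENSRNOG00000019422, chromosome 18, 26462981 to 26466766), stood at 30.5, 23.0 and 20.5 FPKM in loaded Nb3 and at 21.1, 32.5 and 24.7 FPKM in non-loaded Nb3. The values of the groups interleaved, and the log2 difference was -0.07 (95% interval -0.58 to 0.43, adjusted p = 0.815 by limma). Egr3, a close relative of Egr2, stood at 16.6, 6.79 and 13.4 FPKM against 15.9, 12.3 and 8.33 FPKM. It too showed overlapping groups (-0.03, 95% interval -0.79 to 0.73, adjusted p = 0.951). For Egr1 the interval leaves out a 2-fold change in both directions, and so does that of Egr3.

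**Figure D2:**
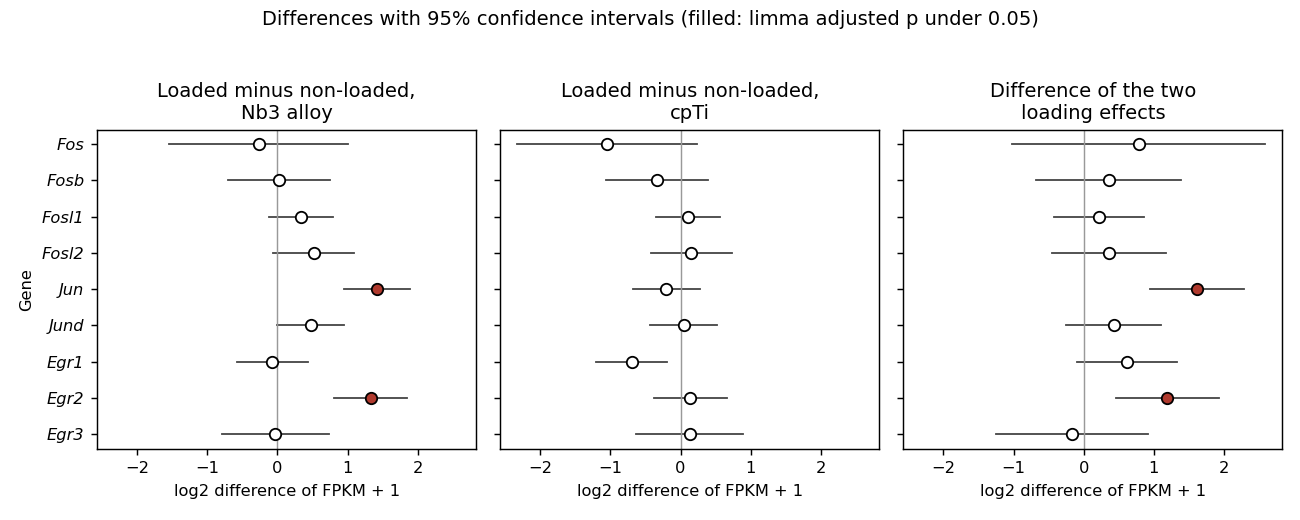
Log2 difference of FPKM + 1 (horizontal axis) of each tested gene (rows), with its 95% interval as a line, for the loading effect beside Nb3, the loading effect beside cpTi and the difference of both effects; filled points are genes called by limma. Jun and Egr2 are filled in the first panel (1.42 and 1.33) and in the third (1.62 and 1.19), and no gene is filled beside cpTi.

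Loading beside cpTi gave no called gene among the 9, at a background of 0.00655% of all tested genes (1 gene, which was lower), and 1062 of all tested genes had an unadjusted p under 0.05. The largest differences were downward, in Fos and Egr1. Fos stood at 6.48, 18.1 and 10.4 FPKM in loaded cpTi and at 25.5, 19.7 and 25.3 FPKM in non-loaded cpTi. All loaded libraries were below all static ones, but the adjusted p was 0.767 (log2 difference -1.05, 95% interval -2.33 to 0.23). Egr1 stood at 16.3, 25.5 and 15.2 FPKM under loading and at 36.6, 25.6 and 30.4 FPKM beside static cpTi. These groups also did not overlap, although loaded replicate 2 and static replicate 2 lay side by side (log2 difference -0.69, 95% interval -1.20 to -0.19, adjusted p = 0.664 by limma). Full separation of 3 against 3 libraries reaches only 0.1 by an exact permutation. How many of all tested genes separated in this way was not counted. The remaining 7 genes lay between -0.34 and 0.15. Jun had 8.27, 13.7 and 9.03 FPKM against 8.42, 12.4 and 15.6 FPKM (-0.20, 95% interval -0.68 to 0.27). Egr2 had 2.20, 4.40 and 2.65 FPKM against 3.22, 2.54 and 2.18 FPKM (0.14, 95% interval -0.38 to 0.66). For both, the upper bound beside cpTi lies below the lower bound beside Nb3 given above.

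Under loading, the alloy and cpTi differed in the same pair of genes. This comparison uses the loaded Nb3 libraries once more, so it is no separate evidence of the changes above. Jun averaged 24.6 ± 3.10 FPKM beside Nb3 and 10.3 ± 2.96 FPKM beside cpTi (SD, n = 3 each), a log2 difference of 1.199 (SE 0.22, adjusted p = 0.00188 by limma). Egr2 averaged 8.63 ± 1.44 and 3.08 ± 1.16 FPKM, a log2 difference of 1.26 (SE 0.24, adjusted p = 0.00233 by limma). The 2 called of 9 stand beside 33.6% of all tested genes called and 14.7% called higher (2239 higher and 2884 lower, or 1357 and 3671 under scaling by total reads). Fos (0.66, adjusted p = 0.412), Egr3 (0.52, adjusted p = 0.274), Egr1 (0.38, adjusted p = 0.234), Fosl2 (0.36, adjusted p = 0.313), Jund (0.36, adjusted p = 0.227), Fosl1 (0.29, adjusted p = 0.307) and Fosb (-0.02, adjusted p = 0.975) were not called. Jund was called in this comparison when loaded Nb3 replicate 3 was left out (0.63, adjusted p = 0.0168, in a range of 0.0168 to 0.533 over 15 alternatives).

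Without loading, limma called no gene between the materials, neither among the 9 nor among all 15268 (0% called, 470 with an unadjusted p under 0.05). The largest difference was that of Egr3, at 15.9, 12.3 and 8.33 FPKM beside Nb3 and 7.01, 5.77 and 8.35 FPKM beside cpTi. The lowest Nb3 library fell just under the highest cpTi library, so the groups overlapped (0.68, 95% interval -0.08 to 1.45, adjusted p = 1). Jun was at -0.42 (95% interval -0.90 to 0.05), with 8.04, 8.66 and 8.92 FPKM beside Nb3 and 8.42, 12.4 and 15.6 FPKM beside cpTi.

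The interaction asks whether loading changed a gene differently beside the materials. It was called for Jun (1.62, SE 0.31, 95% interval 0.95 to 2.29, adjusted p = 0.00473 by limma) and for Egr2 (1.19, SE 0.33, 95% interval 0.46 to 1.93, adjusted p = 0.0289). Of all tested genes 20.2% were called, 8.42% of the tested genes being higher (1285 genes, against 843 under scaling by total reads) and 11.8% lower (1804 against 2386). Jun was called in all 20 alternative analyses, with 1.43 to 1.84. Egr2 was called in 11 of 20, with 1.02 to 1.42 and adjusted p from 0.0116 to 0.0737. It lost the call without a filter on low values, under scaling by total reads, and when 7 single libraries were left out in turn. These were loaded Nb3 replicate 3, loaded cpTi replicates 1 and 3, non-loaded Nb3 replicates 2 and 3 and non-loaded cpTi replicates 1 and 2, with 1.11, 1.04, 1.13, 1.18, 1.02, 1.08 and 1.21. Egr1 (0.62, adjusted p = 0.208), Fos (0.78, adjusted p = 0.547) and Jund (0.43, adjusted p = 0.36) were not called, and the other 4 genes lay between -0.16 and 0.36.

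Markers of several cell types moved with the same libraries. In bulk tissue, fewer cells of a type and less RNA per cell cannot be told apart. The counts below stand beside 20.7% of all tested genes called higher and 25.2% called lower in loaded than in non-loaded Nb3. The summed FPKM of 6 neutrophil granule genes was 4.12 to 30.5 in loaded Nb3 and 1898 to 4433 in non-loaded Nb3, with 0 of 5 tested genes higher and 5 lower. For 6 erythroid genes the sums were 2.91 to 16.7 and 1132 to 1662, and for 6 cell cycle genes 13.4 to 18.1 and 337 to 478, with 6 of 6 lower in each list. B lineage markers were lower as well (26.6 to 60.2 against 267 to 503 FPKM, 6 of 6 lower). Fibroblast and stroma markers ran the other way, at 2051 to 3017 against 247 to 391 FPKM (5 of 6 higher). So did endothelial markers (205 to 381 against 68.0 to 101 FPKM, 5 of 6 higher) and smooth muscle and pericyte markers (574 to 890 against 75.0 to 119 FPKM, 5 of 5 higher). The macrophage sum, at 326 to 619 and 396 to 514 FPKM, overlapped, with 1 of 7 genes higher and 1 lower. The skeletal muscle sum was 136, 684 and 3.48 FPKM in loaded Nb3 replicates 1, 2 and 3 and 1.86 to 3.68 FPKM in non-loaded Nb3, with 2 of 4 tested genes higher and a median log2 difference of 3.68. Osteoclast markers had 2 of 6 higher, with sums of 921 to 4437 and 537 to 1098 FPKM that overlapped. Markers of bone itself were present in every library, with Bglap at 898 to 5146 FPKM and Dmp1 at 112 to 707 FPKM. Osteoblast markers summed to 14308, 5912 and 16259 FPKM in loaded Nb3 replicates 1, 2 and 3, against 2850 to 6223 in non-loaded Nb3 (1 of 6 higher). Osteocyte markers summed to 2545, 634 and 2432 FPKM, against 701 to 2195 (0 of 4 higher, 0 lower). Oral epithelium markers summed to 4.90, 70.3 and 9.86 FPKM, against 12.9 to 17.2 (0 of 2 tested genes higher, 1 lower). Beside cpTi some sums also separated with and without loading. They were 8777 to 10155 and 3075 to 5072 FPKM for osteoblast markers, and 957 to 1804 and 317 to 814 FPKM for osteocyte markers. Neutrophil granule genes had 1502 to 1604 and 1865 to 2866 FPKM, and B lineage markers 165 to 319 and 388 to 438 FPKM. The other sums overlapped there, and no marker gene was called beside cpTi. The part of the marker shifts in the results for Jun and Egr2 was not tested.

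The Schwann cell markers Sox10, a transcription factor, and S100b, a calcium-binding protein, were also higher in loaded than in non-loaded Nb3. Sox10 was at 5.86, 21.7 and 13.9 FPKM in loaded Nb3 replicates 1, 2 and 3, and at 0.514, 1.16 and 1.25 FPKM in non-loaded Nb3 (log2 difference 2.77, adjusted p = 0.00042 by limma). S100b was at 24.4, 13.9 and 25.1 FPKM against 4.33, 4.75 and 5.29 FPKM (1.89, adjusted p = 9.89e-05 by limma). The groups did not overlap for either marker. Beside cpTi, Sox10 was at 1.44 to 4.40 FPKM with and 2.86 to 5.99 FPKM without loading, and S100b at 7.27 to 12.4 FPKM with and 10.8 to 14.2 FPKM without. Their part in the result for Egr2 was not tested.

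Replicates of a group differed more for Fos than for most genes. Its SD within groups was 0.82 on the log2(FPKM + 1) scale, larger than that of 96.0% of all tested genes and of 98.0% of 2849 genes with a similar mean. Egr3 followed with 0.48, above 90.5% of genes of similar mean, while Jun had 0.29 and Egr2 0.30, above 72.5% and 61.1%. In loaded cpTi, replicate 2 was the highest of its group for 7 of the 9 tested genes, all but Fosl1 and Jund. After the group means were subtracted, Fos and Egr1 varied together over the 12 libraries with r = 0.68, and Fosb and Jun with r = 0.69. Fosl1 ran against Egr1 (r = -0.73) and Fos (r = -0.56). These pairs were picked from the ends of the 36 pairs of genes, whose median was 0.15. Fosb (11 to 126 reads per library) and Fosl1 (43 to 137) lie near the filter of 1 FPKM, which limits what their values show. All these values share libraries and their scaling, and rest on 12 points with 4 means removed, so they are descriptions.

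**Figure D3:**
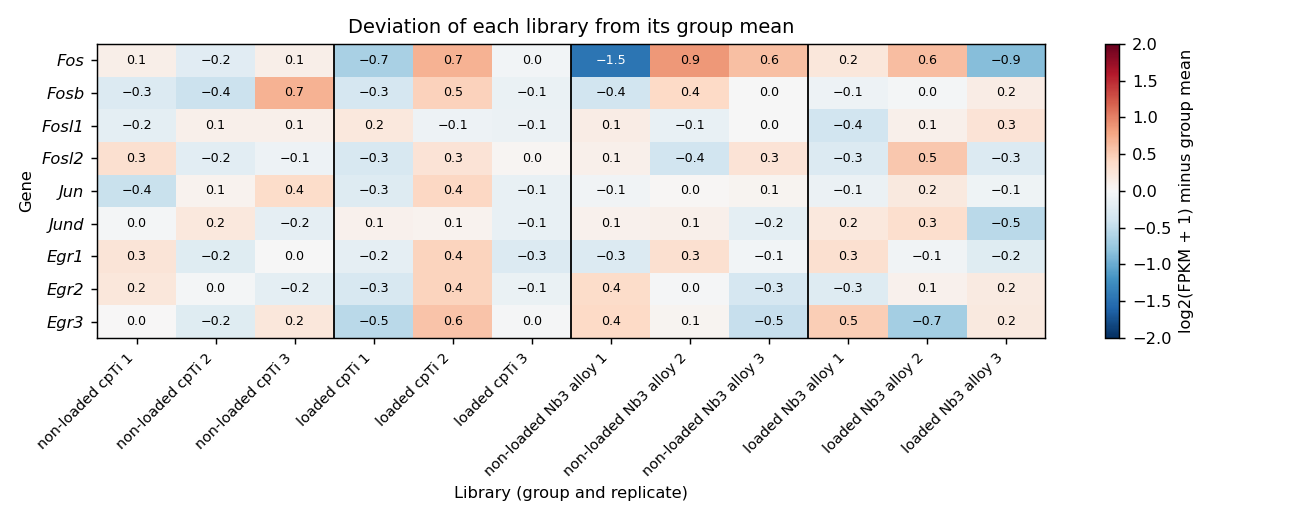
Deviation of each tested gene (rows) from its group mean in every library (columns), in log2(FPKM + 1), with the value in each cell and colour from below the mean to above it. Fos has the widest deviations, and the column of loaded cpTi replicate 2 is the highest of its group for 7 of the 9 genes.

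Genes whose pattern was most like that of Fos, by the same measure, were Fxyd5 (r = 0.93), Mettl18 (0.93), Rgs2 (0.92), a regulator of G protein signalling, and Mrpl43 (0.90). Leaving out 1 library at a time left these between 0.74 and 0.97. They were picked for the highest r, so that range is no separate support. For Jun they were Arl6 (0.93), Pcdhb12 (0.92), Atg10 (0.92) and Vezt (0.90), and for Egr1 the small nuclear RNA U2 (0.91), Mrnip (0.90), Golga7 (0.88) and Rnase3 (0.87). The median r over 15259 other tested genes was 0.00 for Fos, and 9, 3 and 2 genes passed 0.9 for Fos, Jun and Egr1. How many unrelated genes would pass 0.9 among so many was not estimated.

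The wider early response network was followed through 5 lists, chosen with earlier results of these data known. Their counts are therefore descriptions and no independent support. Of 10 tested AP-1 partners of the ATF, BATF, JDP and MAF families, 6 were higher and 2 lower in loaded than in non-loaded Nb3, with a median log2 difference of 0.94 (against 20.7% higher, 25.2% lower and a median of -0.02 over all tested genes). Maff, a small Maf protein, rose from 1.76 ± 0.442 to 9.51 ± 5.59 FPKM (1.804, adjusted p = 0.000767 by limma). Batf3 (1.72), a factor of dendritic cells, rose too. Mafg, another small Maf, fell by 0.85, from 22.4 ± 4.15 to 11.9 ± 1.88 FPKM.

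Among 28 tested other early response genes 18 were higher and 2 lower, with a median of 0.79. Over all tested genes 20.7% were higher and 25.2% lower. Gadd45g, a growth arrest and DNA damage gene, rose from 9.26 ± 2.06 to 47.4 ± 11.4 FPKM (2.23, adjusted p = 7.39e-06 by limma). Socs3, an inhibitor of cytokine signalling, rose from 7.26 ± 0.765 to 76.0 ± 44.1 FPKM, and Ier5l rose from 6.38 ± 3.01 to 33.5 ± 8.32 FPKM (2.29). Btg2, which restrains cell division, went the other way, from 93.1 ± 14.3 to 28.4 ± 8.38 FPKM (-1.71). Nr4a1, a nuclear receptor made early after a stimulus, was not called in this comparison (0.52, adjusted p = 0.319).

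Of 22 tested kinases and promoter-bound factors upstream of these genes, 2 were higher and 8 lower (median -0.12). The 10 called of 22 stand beside 45.8% called over all tested genes, so this share is near the background. The ternary complex factor Elk3 rose (1.07). The kinase genes Mapk14 (p38 alpha, -1.20) and Rps6ka1 (RSK1, -1.62) fell. Of 12 tested brakes on the pathway 6 were higher and 2 lower (median 0.41), with Spred1 (0.99), Spry4 (0.94) and the Egr co-repressor Nab1 (0.89) higher and the phosphatase gene Dusp10 lower (-1.27). Of 20 tested textbook targets of AP-1 and Egr factors 14 were higher and 0 lower (median 1.35). For the brakes and the targets alike, the shares over all tested genes were 20.7% higher and 25.2% lower. Timp1, an inhibitor of matrix proteases, rose from 38.0 ± 19.4 to 399 ± 66.0 FPKM (3.47) and the chemokine gene Ccl2 from 1.83 ± 0.734 to 31.2 ± 19.1 FPKM (3.28). Pdgfa (1.79), a growth factor gene, and Ccnd1 (1.54), which encodes cyclin D1, also rose. The shifts in cell type markers given above moved with the lists as well, and their part in the lists was not tested.

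Loading beside cpTi gave no called member of any of the 5 lists, with medians from -0.10 to 0.18. Over all tested genes only 0.00655% were called in this comparison, so the lists did not differ from the background. The members with the smallest p there included Nr4a1, at 6.44 ± 0.730 FPKM with and 20.4 ± 5.34 FPKM without loading (-1.499, adjusted p = 0.602 by limma), and the matricellular gene Ccn1 (-0.99, adjusted p = 0.664). Jdp2 (0.27), Spred1 (0.45), Dusp10 (-0.48), Pdgfa (0.61), Hbegf (-0.57), Elk4 (-0.17) and Rps6ka3 (-0.24) had adjusted p from 0.674 to 0.837.

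Between the materials under loading, 5 AP-1 partners were higher and 1 lower, 19 early response genes higher and 2 lower, 3 upstream genes higher and 5 lower, 4 brakes higher and 1 lower and 12 targets higher and 0 lower. Over all tested genes 14.7% were higher and 18.9% lower, and the 8 called of 22 upstream genes are near the 33.6% called in either direction. The brakes fell to 1 higher and 1 lower under scaling by total reads, and to 2 higher and 0 lower when only the groups compared were fitted. Batf (1.51), Gadd45b (1.68), Sgk1 (1.16) and Hbegf (1.56) were among them, and again the loaded Nb3 libraries are those of the first comparison. Without loading 0 members of the lists were called, with Cd44 at 0.82 and Atf3 at -0.68 as examples (adjusted p = 1). Of all tested genes 0% were called there.

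In the interaction, where 8.42% of all tested genes were higher and 11.8% lower, 3 AP-1 partners (Batf 1.74, Maff 1.73, Atf3 1.90) were higher and 0 lower. By limma-voom on recovered reads the same list had 0 higher and 1 lower. Of the early response genes 14 were higher and 1 lower, among them Gadd45g (2.42) and Socs3 (2.89), and of the targets 10 were higher and 0 lower, among them Timp1 (2.91) and Hbegf (1.97). The upstream list had 1 higher and 4 lower of 22, near the 20.2% called over all tested genes. Of the 12 brakes 1 was called, Spry4 (0.90), a smaller share than the 20.2% over all tested genes. That count became 0 without a filter, under scaling by total reads and with the replicate block. It was 0 as well without loaded cpTi replicate 1 or 3, non-loaded Nb3 replicate 3, or non-loaded cpTi replicate 1 or 3, and without loaded Nb3 replicate 1 the brakes had 0 higher and 1 lower. Leaving out loaded cpTi replicate 1 took the early response genes to 8 higher and 0 lower and the targets to 6 higher, and left 1 lower upstream gene. Without non-loaded Nb3 replicate 3 the early response genes and targets had 9 and 6 higher, and without non-loaded cpTi replicate 3 the targets had 6.

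**Figure D4:**
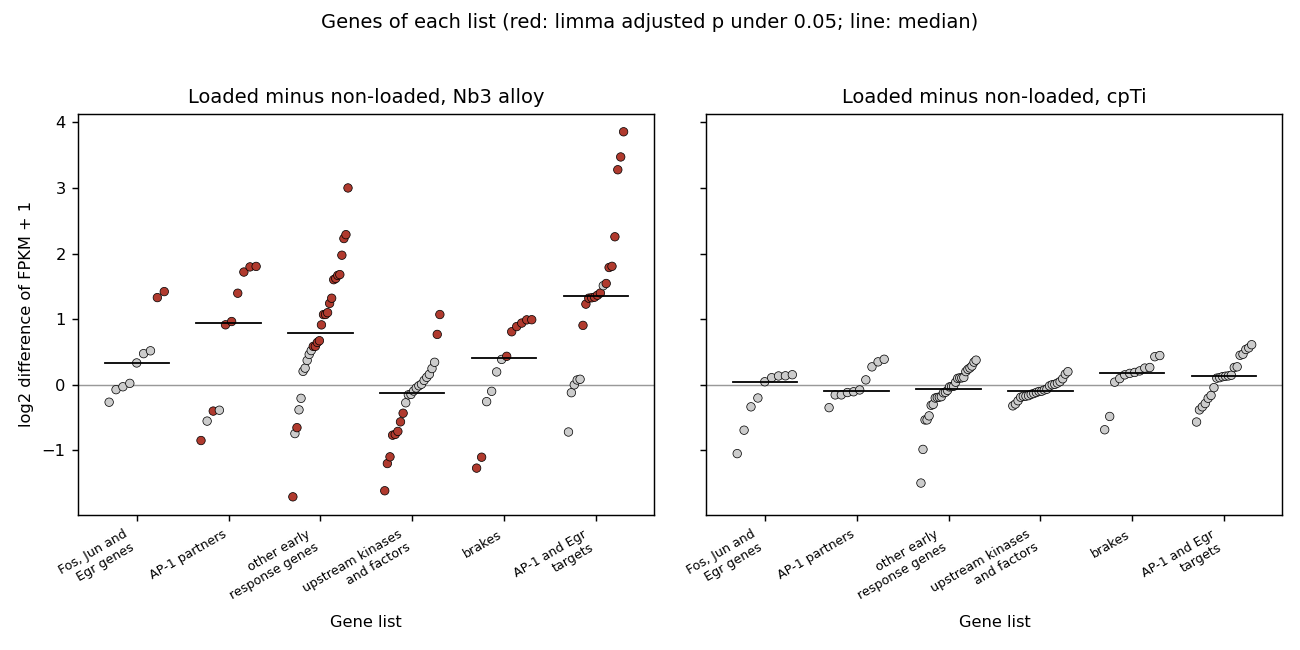
Log2 difference of FPKM + 1 (vertical axis) of each tested gene of the 9 and of the 5 lists (groups of points), loaded minus non-loaded, for Nb3 in the left panel and cpTi in the right; red points are called by limma and the black line is the median of a list. Beside Nb3 the targets (14 of 20) and the other early response genes (18 of 28) are called mostly higher, against 20.7% of all tested genes. The lists were chosen with earlier results of these data known. In the upstream list 2 are higher and 8 lower of 22, near the 45.8% called in either direction over all tested genes. Beside cpTi 0 of the genes shown are called, against 0.00655% of all tested genes.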

How the data were processed

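Polyadenylated RNA from 12 libraries, in 4 groups of 3, was sequenced after TRIzol extraction and NEBNext Ultra preparation, per the labels' protocols. The authors deposited FPKM per gene with gene positions and lengths. The submitters' processing notes name DESeq2 1.20.0, featureCounts 1.5.0-p3, HISAT2 2.0.5, fastp and CASAVA 1.8, with no role for each. The sources used here give no build, annotation or strand setting. Gene positions are as deposited, and RefSeq promoter positions (GRCr8) are kept apart from them.

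Multiplied by gene length, 100% of FPKM values were whole multiples of a fixed step to within 0.01 read, which gave the reads per library (12911912 to 22308428) and per gene. The test was limma 3.58.1 (R 4.3.3) on log2(FPKM + 1), with all 12 libraries, 1 mean per group, 8 residual degrees of freedom and trended, robust empirical Bayes moderation. Genes with at least 1 FPKM in 3 libraries were tested (15268), and p-values were adjusted over all of them by Benjamini-Hochberg. An exact permutation of 3 against 3 libraries cannot go below 0.1, so none was used. The procedure was tested on simulated data with normal noise, in which a small share of genes was shifted. That setting does not cover a shift of as many genes as were called beside Nb3.

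The 10 genes, the pathway lists and the marker lists were chosen with earlier results of these data known. The rule names all 10 genes in every comparison, up to 4 called members of each pathway list by smallest p (where none was called, 2 with the smallest p), and the 4 genes with a symbol most like Fos, Jun and Egr1. Some genes that the rule names are not reported here. Nr4a1 beside Nb3 was named after its values were seen. Python 3.11.15 with matplotlib 3.10.9, pandas 2.3.3 and numpy 2.4.6 served for tables and plots. Alternatives were no filter, a pseudocount of 0.1, scaling by total reads, quantile normalization, limma-voom on recovered reads, a non-robust fit, only the compared groups, leaving out each library, and a replicate block. Scaling by reads outside the mitochondrial chromosome, and the repeats for the pathway lists, were added after seeing the data.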

Additional observations from a re-analysis of the deposited data

Results flagged for a closer look

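The loading effect differed between the materials in an interaction test (limma, adjusted p under 0.05 over all tested genes) for 2 of the 9 tested genes. That share, 22.2%, is near the 20.2% called over all tested genes. Named genes of the pathway lists were called too. Each value is the log2 effect of loading beside Nb3 minus that beside cpTi. Jun was at 1.62 and Egr2 at 1.19, and Egr2 was called in 11 of 20 alternatives. Among AP-1 partners Atf3 was at 1.90 (adjusted p = 0.0455 by limma), Batf at 1.74 and Maff at 1.73. By limma-voom on recovered reads no AP-1 partner was called higher, as given above. Among the other early response genes Ier5l (2.09), Nr4a1 (2.02), Gadd45b (1.41), Gadd45g (2.42), Sgk1 (1.19) and Socs3 (2.89) were higher and Btg2 (-1.17) lower. For Nr4a1 the loading effect itself was not called beside Nb3, and beside cpTi it was -1.499 and not called either. Upstream, Elk3 was at 0.87, Mapk14 at -1.10 and Rps6ka1 at -1.29, and of the brakes Spry4 was at 0.90, a call that was lost without a filter, under scaling by total reads, with the replicate block, and with 8 of the 12 single libraries left out in turn. Among the targets Timp1 was at 2.91, Ccnd1 at 1.44, Ccl2 at 3.15, Pdgfa at 1.18 and Hbegf at 1.97. Loaded Nb3 libraries enter every one of these values, and the marker shifts of those libraries moved with them; their part was not tested.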

How the results depend on the processing

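Jun and Egr2 were called in all 15 alternatives of the loading effect beside Nb3 (1.25 to 1.51 and 1.16 to 1.60) and of the alloy against cpTi under loading (1.03 to 1.40 and 1.11 to 1.501), and the count of called genes among the 10 fell by more than 1.5 times only in the interaction. There it was 1 in place of 2 without a filter and under scaling by total reads, and 1 to 2 with single libraries left out, since the call of Egr2 was lost. Total-read scaling moved the median of all tested genes to -0.17 in the loading effect beside Nb3, -0.15 between the loaded materials and -0.18 in the interaction, and left Jun at 1.25 and Egr2 at 1.18 in the first. Scaling by reads outside the mitochondrial chromosome, added after seeing the data, gave 1.43 and 1.35.

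With the replicate number as a block the loading effect beside Nb3 had 3 called genes of the 10, Jund (0.47, adjusted p = 0.0463) in addition to Jun and Egr2, and no other call among the 10 genes changed. Same-numbered libraries did not deviate together (r from -0.25 to 0.11 over 18 pairs, 1 of them over 0.1). A low r cannot tell whether such libraries share an animal, so whether the numbers pair the samples is not known.

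Uncalled differences changed sign in some alternatives. Quantile normalization put Egr1 at 0.0059 and Egr3 at 0.065 in the loading effect beside Nb3, and total-read scaling put Fosb at -0.045. Between the loaded materials Fosb was at 0.062 with a pseudocount of 0.1, 0.28 under quantile normalization and 0.059 by limma-voom. Fosl2 without loading was at 0.0079 under total-read scaling and 0.0011 by limma-voom. Leaving out single libraries also turned signs, with the range given for each gene. In the loading effect beside Nb3 these were Egr1 (-0.23 to 0.089), Egr3 (-0.28 to 0.31), Fos (-0.999 to 0.16), Fosb (-0.17 to 0.22). Beside cpTi these were Egr2 (-0.084 to 0.29), Egr3 (-0.15 to 0.41), Fosb (-0.57 to 0.013), Jund (-0.042 to 0.15). For the alloy against cpTi under loading these were Fosb (-0.19 to 0.22). Without loading these were Egr2 (-0.11 to 0.24), Fos (-0.55 to 0.61), Fosl1 (-0.035 to 0.14), Fosl2 (-0.14 to 0.19), Jund (-0.16 to 0.037). In the interaction these were Egr3 (-0.44 to 0.18). The cause was not tested.

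Over all tested genes the loading effect beside cpTi had 0 to 4 calls and the alloy without loading 0 to 4, and the interaction had 1986 without loaded cpTi replicate 1 and 2018 without non-loaded Nb3 replicate 3, in place of 3089. Of 400 recomputed list counts 32 moved by more than 1.5 times, and of 1220 recomputed values of named list genes 58 lost a call and 0 changed sign. For the alloy under loading, AP-1 partners fell to 3 without loaded cpTi replicate 1 or 3, and brakes to 1 to 3 without those or loaded Nb3 replicate 1 or 3. In the interaction the upstream list fell to 1 or 2 without loaded cpTi replicate 3 or non-loaded cpTi replicate 2 or 3. Groups of 3 libraries, and 11 to 137 reads per library for Fosb and Fosl1, limit what could be detected.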

Other observations

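Several early response genes and targets that the rule for naming genes did not reach are given here, chosen after their values were seen. In loaded against non-loaded Nb3 the CCAAT-binding factor genes Cebpb and Cebpd were higher by 1.60 and 1.62 on the log2 scale, Nfkbiz, which encodes an atypical inhibitor of NF-kappa-B, by 1.97, and the kinase gene Plk2 by 1.68. Among the targets Mmp3 (stromelysin) was higher by 3.86 and the adhesion gene Icam1 by 1.81, all 6 called by limma. Mmp9 (0.07), Plaur (0.08), Tgfb1 (-0.12) and Cd44, targets of the same list, were not called, and neither were the early response genes Ier2 (0.25), Zfp36 (0.37), Ccn1 (0.20) and Per1 (0.46). Of the factor genes upstream, Srf (-0.27), Elk1 (0.16) and Mrtfb (-0.02) were not called, while Mrtfa (-1.10), Creb1 (-0.76) and Atf1 (-0.57) were lower.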
